A study of Mus musculus with 22 samples.

Results

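The genes described here are 42 components of the macropinocytosis and membrane ruffling machinery, the proteins that raise actin-rich ruffles at the cell surface, close them into fluid-filled vesicles and mature those vesicles. They were taken by symbol from a list of 43 names, of which Rabankyrin and Ankfy1 are the same gene, and all 42 were found among the 55487 genes of each deposited table. They fall into 8 steps: small GTPases with their exchange factors (8 genes), PAK kinases (2), WASP and WAVE complexes (7), the Arp2/3 complex (7), actin turnover and the cell cortex (4), phosphoinositide 3-kinase (PI3K) with phospholipase C (5), cup closure and scission (2), and macropinosome maturation (7). RNA was sequenced from 4 groups of cells, all wild type, from the spleens of male mice, of the C57BL/6 strain per the series description. The groups were macrophages given oxidised LDL (ox-LDL), the modified lipoprotein that loads cells with cholesterol, at 50 µg/mL over 24 hours (6 libraries, G to L), macrophages with vehicle (5 libraries, A to E), monocytes with ox-LDL at the same dose and time (5 libraries, 7 to 11) and monocytes with vehicle (6 libraries, 1 to 6). The macrophages had been differentiated from splenic monocytes by 5 days with 200 ng/mL of the phorbol ester PMA, an activator of protein kinase C, which the labels do not give for the monocytes. The labels state neither the age of the mice nor how the monocytes were purified. Nor do they say that the replicates stem from different animals or dishes, and every p-value below is set by the spread over libraries alone, which may be technical.

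Macropinocytosis starts when receptor or constitutive signals activate Rac and PI3K at the plasma membrane, and WAVE and WASP proteins then switch on the Arp2/3 complex, which nucleates branched actin and pushes out a ruffle. The ruffle closes into a cup, is cut from the membrane, and the vesicle matures as Rab proteins, sorting nexins and endosomal lipid kinases replace the actin coat. Macrophages and immature dendritic cells are known for constitutive macropinocytosis, and fluid-phase uptake of lipoprotein by this route is a known way for macrophages to become foam cells laden with cholesterol. The series title places the process in foamy monocytes of hypercholesterolemic mice, and the comparisons below ask how far transcripts of the machinery differed with ox-LDL and between the cell types.

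Libraries held 37330389 to 50257111 counts each. Markers of macrophages, a list of 11 genes all counted in every library, summed to 30825 to 44245 CPM (counts-per-million) in macrophage libraries and 6405 to 14474 CPM in monocyte libraries. Markers of monocytes, 10 genes, summed to 2776 to 7155 CPM in macrophages and 845 to 2247 CPM in monocytes, so the list named for monocytes was higher in the macrophage libraries. The monocyte libraries also held markers of other cells. Dendritic cell markers (10 genes) summed to 149.8 to 319 CPM in macrophages and 7247 to 12769 CPM in monocytes, neutrophil markers (12) to 24.9 to 93.0 against 4807 to 45582, erythroid markers (9) to 0.701 to 2.80 against 439 to 14413, and B cell markers (8) to 49.3 to 68.3 against 561 to 2071. T cell markers (8) summed to 72.1 to 152 CPM in macrophages and 93.9 to 221 in monocytes, NK cell markers (6) to 0 to 0.327 against 12.7 to 31.7, platelet markers (5) to 53.4 to 268 against 27.3 to 123, and stromal and endothelial markers (7) to 4.44 to 16.1 against 39.3 to 65.3. All 8 T cell markers were counted in every monocyte library, but only 3 in every library of each macrophage group. Cd3d and Cd8a were at 0 in the ox-LDL macrophages. The erythroid marker Car1 was at 0 in every macrophage library, and the neutrophil markers Retnlg and Ly6g in every macrophage library with ox-LDL. Monocyte libraries stood apart in 1 further way: vehicle replicates 5 and 6 and ox-LDL replicates 10 and 11 had neutrophil sums of 29809 to 45582 CPM, against 4807 to 5907 CPM in the other 7. Among macrophage libraries, vehicle replicates C and D and ox-LDL replicates I and J separated from the other 7 on a first principal component that held 38.9% of the variance. Both sets cut across the treatments.

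In monocytes, no transcript of the machinery differed between ox-LDL and vehicle past the test. Of the 42 genes, 41 passed the filter on low counts, and edgeR's quasi-likelihood test with Benjamini-Hochberg adjustment over all genes called 0 of them (a call is an adjusted p under 0.05), with 6 at an unadjusted p under 0.05, and DESeq2 also called 0. Over all 16575 genes tested, 0.0241% were called, so a count of 0 in 41 is what the background gives. The median log2 fold change over the members was 0.003 and that over all genes -0.002. Counted the other way, 0 members had ox-LDL libraries that all lay to 1 side of the vehicle libraries, where 1.39% of all genes tested did. Alongside, the summed macrophage markers were 9438 to 14474 CPM in ox-LDL monocytes and 6405 to 9432 CPM in vehicle monocytes, while the summed neutrophil markers overlapped, at 4807 to 43019 CPM with ox-LDL and 5511 to 45582 CPM with vehicle. The part of other cells in these values was not tested.

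The lowest p in monocytes was that of Wasf2 (chr4:133130505-133199756, GRCm38, plus strand), which encodes WAVE2, the WAVE protein of leukocytes that links Rac to the Arp2/3 complex. On the CPM scale used for all tests, with library sizes scaled by TMM, Wasf2 stood at 87.5, 98.0, 66.8, 151 and 88.1 CPM in the ox-LDL monocytes and at 121 to 191 CPM, with a median of 152, in the vehicle monocytes. Of the ox-LDL libraries, 4 lay under every vehicle library and replicate 10 lay among them. The log2 fold change was -0.65 ± 0.20 (SE), with a 95% interval of -1.08 to -0.21 and an adjusted p of 0.302 in edgeR's test. Wasl, which encodes N-WASP, the WASP relative that Cdc42 activates in most tissues, had 19.8, 23.2, 18.2, 18.7 and 16.5 CPM in the ox-LDL monocytes, against 21.6 to 32.9 CPM (median 23.1) in the vehicle monocytes. Its values overlapped in 1 ox-LDL library, replicate 8, and its log2 fold change was -0.36 ± 0.14 (edgeR adjusted p = 0.382). Marcks, a membrane-bound substrate of protein kinase C that binds actin and phosphoinositides, had 845, 1125, 856, 833 and 704 CPM with ox-LDL and 968 to 1437 CPM (median 1104) with vehicle. It too overlapped in replicate 8, with a log2 fold change of -0.40 ± 0.16 (edgeR adjusted p = 0.400).

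Among the maturation genes of monocytes, 3 had unadjusted p under 0.05 with higher values under ox-LDL, and none was called. Snx1, a sorting nexin that coats and tubulates endosomes, had 147, 136, 163, 124 and 149.5 CPM with ox-LDL, against 98.7 to 141 CPM (median 116) with vehicle. Rab5a, the GTPase of early endosomes, had 71.1, 62.1, 72.1, 58.4 and 54.9 CPM with ox-LDL, against 49.6 to 60.8 CPM (median 53.8) with vehicle. Rab7, the GTPase of late endosomes, had 347, 317, 379, 315 and 369 CPM with ox-LDL, against 258 to 326 CPM (median 295) with vehicle. In each of these genes 3 ox-LDL libraries lay above all 6 vehicle libraries and 2 lay among them. The log2 fold changes were 0.31 ± 0.11 for Snx1, 0.26 ± 0.10 for Rab5a and 0.26 ± 0.11 for Rab7, with edgeR adjusted p of 0.372, 0.407 and 0.445.

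The best-known drivers of ruffling lay flat or spread widely in monocytes. Rac1, the GTPase that starts the ruffle, had 495, 705, 502, 572 and 711 CPM with ox-LDL and 560.0 to 659 CPM (median 642) with vehicle. Cdc42, the GTPase that activates WASP proteins, had 1021, 1222, 1062, 974 and 1426 CPM with ox-LDL and 1029 to 1312 CPM (median 1142) with vehicle. In both genes the ox-LDL libraries lay on either side of the vehicle libraries, and the log2 fold changes were -0.04 ± 0.13 and 0.02 ± 0.14. Dock2, the Rac exchange factor of blood cells, had 508, 269.6, 383, 429.7 and 305 CPM with ox-LDL and 268 to 572 CPM (median 426) with vehicle. Swap70, which binds PI3K lipids, Rac and actin filaments at ruffles, had 1168, 789, 1167, 648 and 485 CPM with ox-LDL and 619 to 1164 CPM (median 759) with vehicle. The libraries of both groups overlapped in these genes, with log2 fold changes of -0.11 ± 0.20 for Dock2 and 0.07 ± 0.23 for Swap70.

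Pak1, the kinase downstream of Rac and Cdc42 that macropinocytosis is known to need, had 26.4, 26.7, 27.7, 30.6 and 36.6 CPM in ox-LDL monocytes and 24.4 to 39.6 CPM (median 29.3) in vehicle monocytes. Pik3cd, the leukocyte PI3K catalytic subunit p110 delta, had 93.1, 75.2, 54.0, 168 and 136 CPM with ox-LDL and 99.5 to 199.8 CPM (median 119.8) with vehicle. Rab34, a GTPase found on ruffles and macropinosomes, had low values, 3.03, 3.84, 3.05, 1.15 and 1.42 CPM with ox-LDL and 1.09 to 3.49 CPM (median 2.29) with vehicle. All 3 genes overlapped between the groups, and their log2 fold changes were -0.06 ± 0.16, -0.25 ± 0.28 and 0.17 ± 0.35. Wasf1, which encodes WAVE1, the WAVE protein best known from neurons, had at most 6 counts in any monocyte library and was not tested there. How small a difference these libraries could show is given by the intervals. The 95% interval of the fold change lay within 1.5-fold either way for 29 of the 41 genes and within 2-fold for 39, with Wasf2 and Cttn outside, and the median half-width was 0.34 on the log2 scale.

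A single member, 1 of 42, was called with ox-LDL in macrophages, and it was lower. Over all 14543 genes tested, 0.976% were called higher and 1.38% lower, so 0 higher and 1 lower of 42 lies near the background, and the median log2 fold change of the members was -0.02, against 0.0003 over all genes. The called gene was Pak1 (chr7:97788541-97912381, GRCm38, plus strand). It stood at 26.4 to 33.6 CPM (median 30.8) in the ox-LDL macrophages, against 36.8, 38.5, 37.0, 37.5 and 39.4 CPM in the vehicle macrophages. Every ox-LDL library lay under every vehicle library. The log2 fold change was -0.31 ± 0.07, a 1.24-fold lower level, with a 95% interval of -0.47 to -0.15 and an edgeR adjusted p of 0.0419. The call was close to its threshold. It ended without any 1 of 9 of the 11 libraries and held without J or K, with log2 fold changes of -0.34 to -0.28 in these 11 fits, and it ended in a fit with no filter on low counts (adjusted p = 0.0801), in 1 fit over all 4 groups (0.436) and without libraries C, D, I and J (0.102). Pak2, the other PAK kinase among the members, had 131 to 156 CPM with ox-LDL and 141 to 155 CPM with vehicle, with a log2 fold change of -0.02 ± 0.06.

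The gene with the next lowest p in macrophages was Rhog, a GTPase that acts upstream of Rac. It had 224 to 305 CPM (median 278) with ox-LDL, against 379, 323, 285, 320.2 and 369 CPM with vehicle, and a log2 fold change of -0.29 ± 0.09 (edgeR adjusted p = 0.137). Marcks had 265 to 375 CPM (median 309) with ox-LDL, against 518, 457, 381, 331 and 382 CPM with vehicle, and a log2 fold change of -0.38 ± 0.12 (edgeR adjusted p = 0.141). In both genes all but 1 vehicle library lay above all 6 ox-LDL libraries, the exceptions being C in Rhog and D in Marcks, 2 of the 4 libraries that stood apart. With that library set as a covariate, an alternative chosen after seeing the data, Rhog (adjusted p = 0.0240), Pak1 (0.0244) and Marcks (0.0123) were all called lower. Leaving those 4 libraries out, also chosen after seeing the data, called none of these genes. The edgeR adjusted p was then 0.0961 for Rhog, 0.102 for Pak1 and 0.105 for Marcks.

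Arpc4, the Arp2/3 subunit that anchors the complex core, had 302 to 329.6 CPM (median 319) in ox-LDL macrophages, against 411, 369, 336, 340.0 and 354 CPM in vehicle macrophages. With Pak1 it was 1 of 2 members whose groups did not overlap, where 3.38% of all genes tested had groups that did not. Its log2 fold change was -0.19 ± 0.06 (edgeR adjusted p = 0.162). The annotated Arpc4 lies on the same strand as part of Ttll3, so reads of the 2 genes may not be separable. Rab7 had 350.4 to 384 CPM (median 370.0) with ox-LDL and 366, 339, 331, 319 and 318 CPM with vehicle, with a log2 fold change of 0.14 ± 0.06 (edgeR adjusted p = 0.275). Vehicle library A lay among the ox-LDL libraries in that gene. Wasf1 was barely present: it had 1 to 14 counts (median 2) in the ox-LDL macrophages, against 13, 16, 9, 12 and 22 counts in the vehicle macrophages. Only ox-LDL library J, with 14 counts, lay within the vehicle range, and the log2 fold change was -1.76 ± 0.56 (edgeR adjusted p = 0.140). Without libraries C, D, I and J, which leaves out the overlapping library J, Wasf1 was called at -2.66 (edgeR adjusted p = 0.0265). With that set as a covariate Wasf1 was not called (-1.78, edgeR adjusted p = 0.0843). Both alternatives were chosen after seeing the data.

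Macrophage values of the main GTPases, PI3K and maturation genes overlapped between ox-LDL and vehicle. Rac1 had 601 to 708 CPM (median 637) with ox-LDL and 738, 712.5, 652, 677 and 705 CPM with vehicle. Cdc42 had 834 to 1057 CPM (median 889) with ox-LDL and 1005, 975.5, 871, 839 and 822 CPM with vehicle. Dock2 had 290.9 to 337 CPM (median 317) with ox-LDL and 287, 322, 353, 335 and 326 CPM with vehicle. These 3 had log2 fold changes of -0.11 ± 0.06, 0.02 ± 0.08 and -0.05 ± 0.07. Pik3cd had 111 to 197 CPM (median 176) with ox-LDL and 132, 139.7, 125, 127 and 168 CPM with vehicle. Swap70 had 81.8 to 111 CPM (median 105) with ox-LDL and 107, 99.8, 95.9, 96.2 and 107 CPM with vehicle. Rab34 had 21.3 to 29.5 CPM (median 25.5) with ox-LDL and 27.7, 22.6, 27.9, 32.2 and 24.9 CPM with vehicle. Their log2 fold changes were 0.26 ± 0.14, -0.02 ± 0.08 and -0.09 ± 0.11, and no one of the 6 genes was called. The macrophage intervals were narrower than those of the monocytes: they lay within 1.5-fold either way for 39 of 42 genes, the exceptions being Wasf1, Cttn and Marcks, and their median half-width was 0.17 on the log2 scale.

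**Figure D1:**
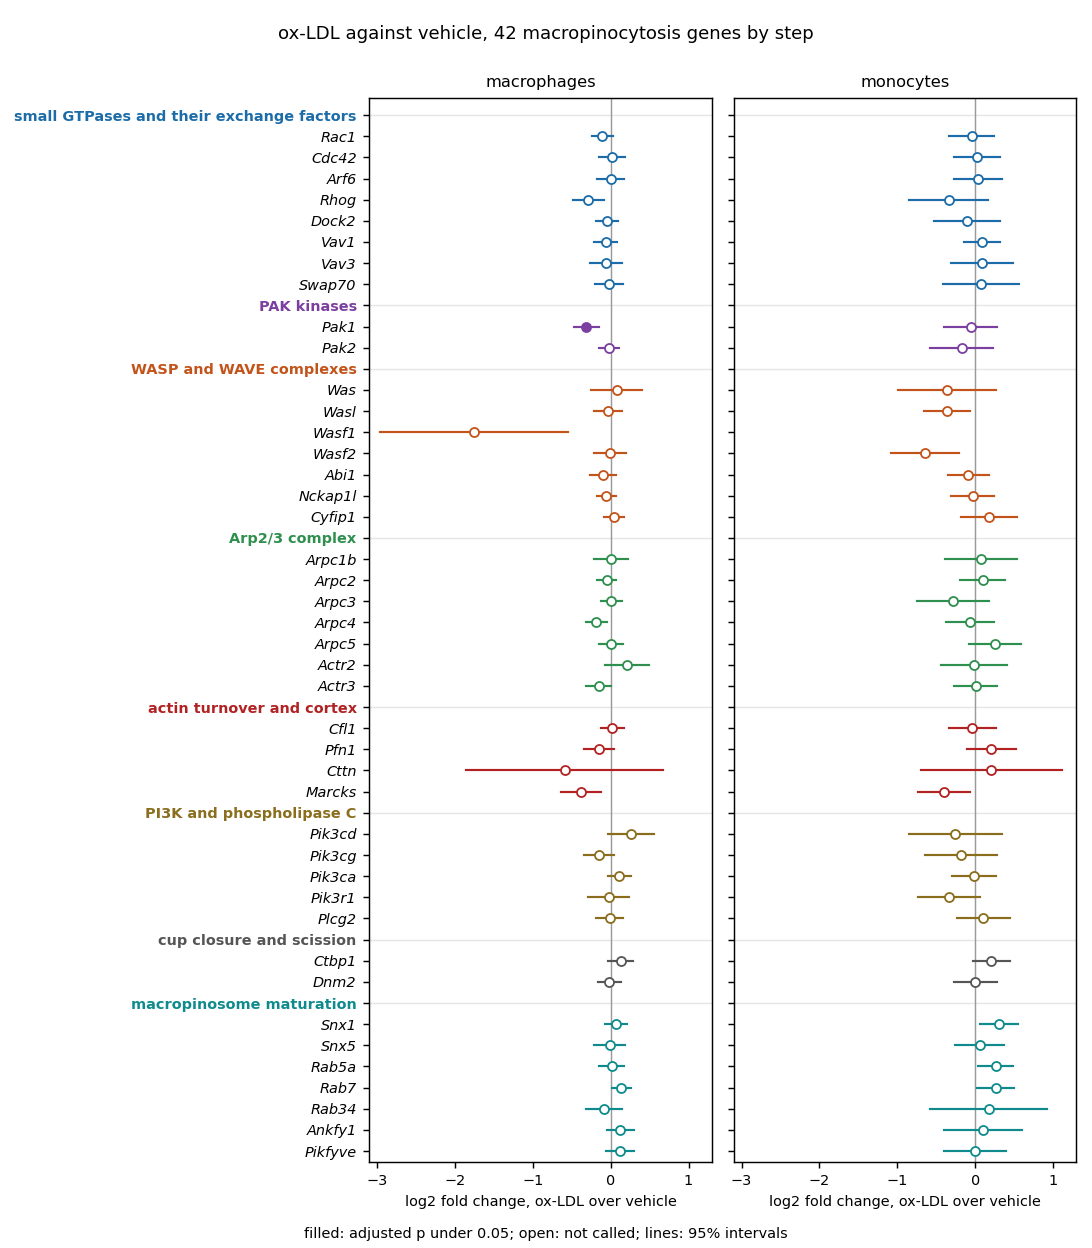
Log2 fold change of ox-LDL over vehicle (x axis) for each of the 42 genes, grouped by step (y axis), in macrophages (left) and monocytes (right), with 95% intervals as lines and called genes as filled points. Pak1 in macrophages (-0.31) is the only filled point, and Wasf1 was not tested in monocytes.

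The difference of the ox-LDL effects between the cell types, macrophages minus monocytes, was tested as an interaction over all 22 libraries. The edgeR test called 0 of 42 members, with 3 at an unadjusted p under 0.05 and 0 called by DESeq2, where 0.063% of 17466 genes were called. Wasf2 had the lowest adjusted p with a difference of 0.67 ± 0.23 on the log2 scale (edgeR adjusted p = 0.483), the ox-LDL effects being -0.01 ± 0.10 in macrophages and -0.65 ± 0.20 in monocytes. Its difference was called without monocyte ox-LDL replicate 10 and without the 4 monocyte libraries high in neutrophil markers. Replicate 10 is 1 of those 4, so both fits leave it out. Over all genes, the fit without replicate 10 called 23 higher and 21 lower of 17786. The fit without the 4 libraries called 85 higher and 44 lower of 17971. For Pak1 the difference was -0.23 ± 0.16 (edgeR adjusted p = 0.828), so its lower level in ox-LDL macrophages is not shown to differ from its ox-LDL effect in monocytes. The median of the 42 differences was -0.02.

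Far more of the machinery differed between macrophages and monocytes than between ox-LDL and vehicle. The labels give the 5 days with PMA for the macrophages alone. In this and every comparison of the cell types below, cell type therefore cannot be told apart from PMA or from those days in culture. With vehicle, 9 of the 41 genes tested were higher in macrophages, 13 were lower and 19 were not called, where 28.5% of all genes were called higher and 35.1% lower. With ox-LDL, 11 were higher, 12 lower and 18 not called, where 30.3% of all genes were called higher and 35.0% lower. As shares the members' counts thus lie close to those of all genes, and the median log2 fold change of the members was 0.09 with vehicle and -0.04 with ox-LDL, against -0.09 and -0.07 over all genes. In bulk libraries, fewer cells of a type and less RNA per cell cannot be told apart, and the marker sums of dendritic, neutrophil, erythroid and B cells given above moved with this comparison: their part in it was not tested. Without the 4 monocyte libraries high in neutrophil markers, 13 members were called higher and 14 lower with vehicle, and 11 higher and 11 lower with ox-LDL. Those fits called 4867 genes higher and 5672 lower of 16291 with vehicle, and 4902 higher and 5763 lower of 16358 with ox-LDL. The members' counts were not tested against these.

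The same 9 genes were higher in macrophages with both treatments, and 12 were lower with both. Some of these calls did not hold under every alternative. With ox-LDL, Rhog (-0.55 ± 0.18, edgeR adjusted p = 0.0181) was no longer called without the 4 monocyte libraries high in neutrophil markers (-0.28, adjusted p = 0.141) or without libraries C, D, I and J (-0.49, adjusted p = 0.0691), and Vav1 (0.30 ± 0.09, edgeR adjusted p = 0.00993) not with total-count scaling (0.20, adjusted p = 0.0641). Rab5a (0.25 ± 0.10, edgeR adjusted p = 0.0362) lost its ox-LDL call with RLE or total-count scaling, with no filter, in DESeq2, without any 1 of monocyte libraries 8, 10 and 11 and macrophage libraries J, K and L, and without either set of 4 libraries. Cdc42 was no longer called with no filter on low counts under either treatment, nor, with vehicle, without library C or without libraries C, D, I and J. Wasl was called with vehicle alone, and Pak2 and Was (WASP, the Cdc42-activated nucleation promoter of blood cells) with ox-LDL alone, the call of Pak2 ending with total-count scaling, in DESeq2, without any 1 of monocyte libraries 7, 8 and 9 and macrophage libraries G, H, J and L, and without libraries C, D, I and J. The interaction test did not show that these differ between treatments, at 0.35 ± 0.16 for Wasl, 0.18 ± 0.19 for Pak2 and 0.46 ± 0.34 for Was (edgeR adjusted p = 0.670, 0.915 and 0.834). The 17 genes called in neither were Rac1, Dock2, Vav3, Pak1, Abi1, Cyfip1, Arpc3, Arpc4, Actr2, Cttn, Pik3cd, Pik3cg, Plcg2, Ctbp1, Dnm2, Snx1 and Rab7. They include Rac1 itself and both genes of cup closure and scission: Ctbp1, whose product helps cut the closing cup, and Dnm2, the membrane-severing GTPase dynamin 2.

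Genes of macropinosome maturation were called higher in macrophages in 5 of 7 cases and lower in 0, with either treatment. Over all genes the shares were 28.5% higher and 35.1% lower with vehicle, and 30.3% higher and 35.0% lower with ox-LDL. The counts of this step and of the steps below were not tested against these shares. Of the 5, Rab5a lost its ox-LDL call under the alternatives named above. Rab34 (chr11:78188430-78192193, GRCm38, plus strand) had 27.7, 22.6, 27.9, 32.2 and 24.9 CPM in the vehicle macrophages, against 1.09 to 3.49 CPM (median 2.29) in the vehicle monocytes. The lowest macrophage library stood far above the highest monocyte library, and the log2 fold change was 3.56 ± 0.25, or 11.8-fold (edgeR adjusted p = 3.75e-08). With ox-LDL the log2 fold change was 3.32 ± 0.29. Pikfyve (chr1:65186683-65278695, plus strand), the lipid kinase that converts endosomal phosphoinositides and that macropinosomes need to shrink, had 84.6, 113, 109.7, 108 and 98.2 CPM in vehicle macrophages, against 16.5 to 35.8 CPM (median 29.1) in vehicle monocytes. Its groups did not overlap either, with log2 fold changes of 1.90 ± 0.18 with vehicle (edgeR adjusted p = 8.16e-07) and 2.04 ± 0.10 with ox-LDL.

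Snx5 (chr2:144250123-144270906, minus strand), a sorting nexin recruited to early macropinosomes, had 267, 260.1, 231, 199.5 and 197 CPM in vehicle macrophages, against 69.9 to 115 CPM (median 84.0) in vehicle monocytes. The groups did not overlap, and the log2 fold change was 1.36 ± 0.15 (edgeR adjusted p = 2.25e-06). The Snx5 locus holds a small nucleolar RNA, Snord17, on its own strand and overlaps Mgme1 on the other, and reads of overlapping genes may not be separable. The same limit holds for other members called between the cell types that overlap a protein-coding gene on the other strand. These include Arpc1b (Pdap1), Cfl1 (Snx32), Rab5a (Pp2d1) and Arf6 (Gm9887). Ankfy1, the Rab5 effector Rabankyrin-5 that localises to macropinosomes, had 247, 280.4, 271, 288 and 304 CPM in vehicle macrophages, against 76.4 to 188 CPM (median 171) in vehicle monocytes. All its macrophage libraries lay above all monocyte libraries, with a log2 fold change of 0.90 ± 0.22 (edgeR adjusted p = 0.00233). Rab5a was higher by 0.49 ± 0.09, while Snx1 (0.18 ± 0.10) and Rab7 (0.17 ± 0.09) were not called.

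Of the Arp2/3 complex, 4 of 7 subunits were called lower in macrophages and 0 higher, with either treatment. Arpc1b, the subunit of the complex typical of blood cells, had 709.9, 656, 659.9, 651 and 698 CPM in vehicle macrophages, against 940 to 1785 CPM (median 1471) in vehicle monocytes. Arpc5, a subunit that sets the activity of the complex, had 622, 595.5, 603, 563.5 and 538 CPM in vehicle macrophages, against 806 to 1233 CPM (median 899) in vehicle monocytes. No macrophage library reached the lowest monocyte library in either gene, with log2 fold changes of -1.04 ± 0.16 and -0.71 ± 0.12 (edgeR adjusted p = 4.66e-05 and 0.000166). Arpc2, which holds the complex to the mother filament, had 757, 725, 695, 668 and 686 CPM in vehicle macrophages, against 902 to 1303 CPM (median 1048) in vehicle monocytes. Actr3, the actin-related subunit Arp3, had 800.5, 768, 749.9, 718 and 672 CPM in vehicle macrophages, against 868 to 1246 CPM (median 1016) in vehicle monocytes. These groups did not overlap, with log2 fold changes of -0.61 ± 0.11 and -0.50 ± 0.11 (edgeR adjusted p = 0.000296 and 0.00107). Actr2, the partner Arp2, and Arpc3 had log2 fold changes of -0.27 ± 0.18 and -0.30 ± 0.18 and were not called, nor was Arpc4 at 0.10 ± 0.11, so subunits of 1 complex did not move by a common amount.

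Of the 4 genes of actin turnover and cortex, 3 were lower in macrophages. Pfn1 (chr11:70651850-70654644, minus strand), which encodes profilin, the protein that feeds actin monomers to growing filaments, had 2022, 1710.0, 1531, 1685 and 1710.0 CPM in vehicle macrophages, against 3963 to 5151 CPM (median 4440.4) in vehicle monocytes. Marcks had 518, 457, 381, 331 and 382 CPM in vehicle macrophages, against 968 to 1437 CPM (median 1104) in vehicle monocytes. In both genes the groups lay far apart, with log2 fold changes of -1.39 ± 0.11 for Pfn1 and -1.52 ± 0.16 for Marcks (edgeR adjusted p = 1.75e-07 and 1.44e-06). Cfl1, cofilin, the filament-severing protein, was lower by a log2 fold change of -0.69 ± 0.11. Cttn, cortactin, which stabilises actin branches, was not called (0.44 ± 0.38) and varied with the library sets described below.

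Small GTPases and exchange factors held 1 gene higher and 4 lower of 8. Swap70 (chr7:110221711-110283506, plus strand) had the lowest fold change of all members. It had 107, 99.8, 95.9, 96.2 and 107 CPM in vehicle macrophages, against 619 to 1164 CPM (median 759) in vehicle monocytes. No library of 1 cell type came near the other, and the log2 fold change was -3.05 ± 0.17, an 8.26-fold lower level (edgeR adjusted p = 3.51e-09). With ox-LDL the log2 fold change was -3.13 ± 0.22. Rhog had 379, 323, 285, 320.2 and 369 CPM in vehicle macrophages, against 339 to 680.3 CPM (median 499) in vehicle monocytes, overlapping in 2 macrophage libraries, A and E, with a log2 fold change of -0.62 ± 0.16 (edgeR adjusted p = 0.00336). That call ended without libraries C, D, I and J, at -0.48 (adjusted p = 0.0750). Arf6, a GTPase of membrane recycling at the cell surface, and Cdc42 were lower by log2 fold changes of -0.38 ± 0.10 and -0.36 ± 0.10, the call of Arf6 ending with no filter on low counts (-0.29, adjusted p = 0.0802). Vav1, an exchange factor downstream of leukocyte receptors, was the 1 gene of this step that was higher, with 337, 332, 313, 349.5 and 361 CPM in vehicle macrophages, against 221 to 280.5 CPM (median 240.2) in vehicle monocytes. Its groups did not overlap and its log2 fold change was 0.44 ± 0.09 (edgeR adjusted p = 0.00103).

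Of the WASP and WAVE genes tested with vehicle, 2 were higher in macrophages and 1 lower of 6. Nckap1l, the blood-cell WAVE complex subunit also called HEM1, had 677, 708, 729, 797 and 759.9 CPM in vehicle macrophages, against 264 to 419 CPM (median 374) in vehicle monocytes. The groups did not overlap, with a log2 fold change of 1.03 ± 0.12 (edgeR adjusted p = 5.7e-06). The WAVE complex subunits Abi1 and Cyfip1, also members, had 0.09 ± 0.09 and 0.35 ± 0.16 and were not called. Further subunits of that complex are given with the other pathway genes below. Wasf2 had 158, 228, 205.5, 221 and 226 CPM in vehicle macrophages and 121 to 191 CPM (median 152) in vehicle monocytes, overlapping in library A, with a log2 fold change of 0.38 ± 0.14 (edgeR adjusted p = 0.0250). With ox-LDL it was 186 to 239.5 CPM (median 203) in macrophages and 66.8 to 151 CPM in monocytes, with no overlap and a log2 fold change of 1.03 ± 0.17 (edgeR adjusted p = 0.000150). The call with vehicle ended without any 1 of monocyte library 2 and macrophage libraries B, D and E (adjusted p = 0.0504 to 0.0566), without libraries C, D, I and J (0.0663) and with total-count scaling (0.0767). Wasl was lower with vehicle by -0.48 ± 0.13.

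In the PI3K step, 1 catalytic gene was higher in macrophages and the regulatory gene lower. Pik3ca, the broadly expressed catalytic subunit p110 alpha, had 73.15, 80.2, 77.85, 73.6 and 71.8 CPM in vehicle macrophages, against 33.6 to 51.7 CPM (median 42.8) in vehicle monocytes. Pik3r1, whose products include the regulatory subunit p85 alpha, had 48.7, 75.6, 78.0, 72.7 and 78.8 CPM in vehicle macrophages, against 99.4 to 179 CPM (median 152) in vehicle monocytes. Neither gene's groups overlapped, and the log2 fold changes were 0.80 ± 0.11 and -1.10 ± 0.17 (edgeR adjusted p = 2.57e-05 and 5.15e-05). The leukocyte catalytic genes Pik3cd (0.09 ± 0.16) and Pik3cg (-0.36 ± 0.16) and the phospholipase gene Plcg2 (-0.02 ± 0.14) were not called.

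**Figure D2:**
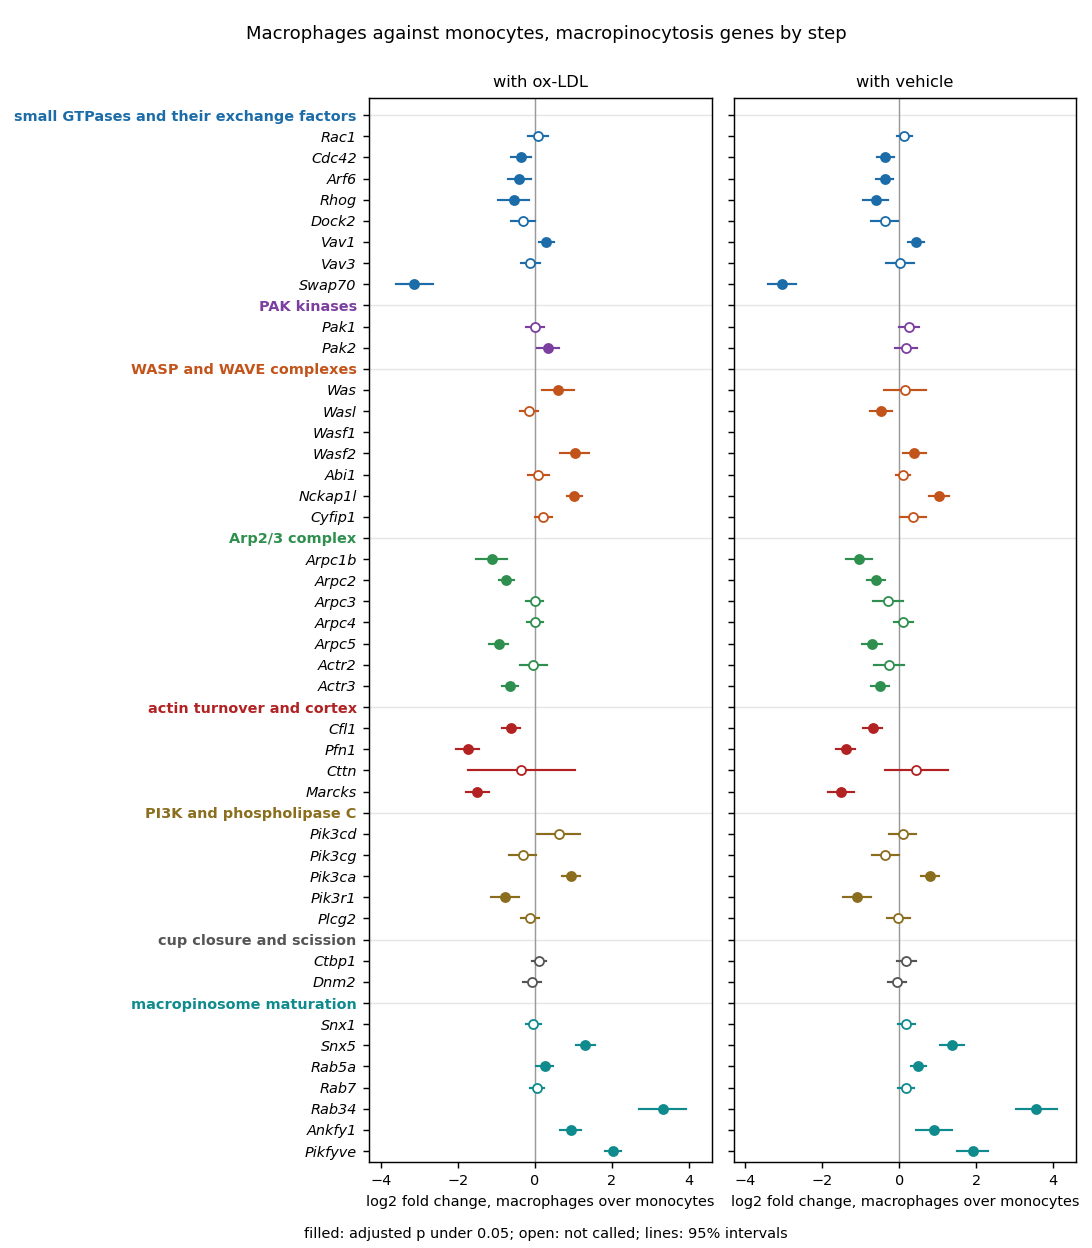
Log2 fold change of macrophages over monocytes (x axis) by gene and step (y axis), with ox-LDL (left) and with vehicle (right), with 95% intervals as lines and called genes as filled points. Rab34 (3.32 and 3.56) lies farthest right, Swap70 (-3.13 and -3.05) farthest left, and Wasf1 was not tested.

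The promoters of the 4 genes of the GTPase and maturation steps with the widest differences between the cell types are shown next, since their transcripts separated the cell types most in these steps. Each is the window from 250 bases before to 50 after a RefSeq start site of the GRCm38.p6 assembly, written 5′ to 3′ on the gene's strand, with capitals for a match to 1 of 4 motifs searched. The Rab34 window is that of the start site nearest the gene's annotated start, and a second Rab34 start site in the table is not shown. The Snx5 start site lies 334 bases inside the gene as the files' annotation draws it.
Rab34, chr11:78188177-78188476, plus strand: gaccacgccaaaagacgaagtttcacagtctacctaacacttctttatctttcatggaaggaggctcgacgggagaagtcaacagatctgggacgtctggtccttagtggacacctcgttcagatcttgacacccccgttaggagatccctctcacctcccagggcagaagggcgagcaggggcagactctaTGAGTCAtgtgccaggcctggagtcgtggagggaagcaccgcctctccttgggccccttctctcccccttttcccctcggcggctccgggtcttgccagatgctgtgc
Pikfyve, chr1:65186435-65186734, plus strand: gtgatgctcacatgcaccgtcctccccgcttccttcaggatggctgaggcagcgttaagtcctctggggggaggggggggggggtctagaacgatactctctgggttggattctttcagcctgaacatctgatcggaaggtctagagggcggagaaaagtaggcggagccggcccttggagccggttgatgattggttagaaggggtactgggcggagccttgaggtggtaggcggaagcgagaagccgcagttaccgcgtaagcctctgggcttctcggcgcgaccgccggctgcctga
Snx5, chr2:144270523-144270822, minus strand: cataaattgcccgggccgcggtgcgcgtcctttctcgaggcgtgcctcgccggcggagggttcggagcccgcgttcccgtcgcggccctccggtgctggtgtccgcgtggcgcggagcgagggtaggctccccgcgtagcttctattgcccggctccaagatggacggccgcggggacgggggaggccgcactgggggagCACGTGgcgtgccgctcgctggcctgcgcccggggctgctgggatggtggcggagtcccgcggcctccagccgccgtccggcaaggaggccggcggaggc
Swap70, chr7:110221453-110221752, plus strand: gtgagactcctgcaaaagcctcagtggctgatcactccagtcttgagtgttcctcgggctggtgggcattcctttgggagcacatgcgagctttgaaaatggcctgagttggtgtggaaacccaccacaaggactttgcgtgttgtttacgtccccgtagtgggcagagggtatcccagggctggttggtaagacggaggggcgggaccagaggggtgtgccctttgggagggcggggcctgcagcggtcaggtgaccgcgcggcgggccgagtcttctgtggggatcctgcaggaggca
The capitals in Rab34 mark TGANTCA, the motif of AP-1 factors, and those in Snx5 mark CACGTG, the E-box bound by bHLH factors such as the MiT/TFE family. No searched motif was found in the Pikfyve and Swap70 windows.

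The RefSeq table held 45 promoters of 35 of the 42 genes. On both strands, TGANTCA was found in 3 of the 45 (6.67%; Vav3, Pik3ca and Rab34), against 7.79% of all 32544 mouse promoters of that length in the table. CACGTG was found in 5 (11.1%; Pak1, Arpc5, Plcg2, Snx5 and Rab5a), against 7.17% of all. GAGGAAGT, the motif of the myeloid ETS factor PU.1, was also found in 5 (11.1%; Rhog, Vav1, Arpc1b and both promoters of Pik3cg), against 3.11% of all. The 2 Pik3cg windows overlap and hold the same match, so these are 4 separate matches. The CArG box, bound by serum response factor at actin-related genes, was found in 1 (2.22%; Arpc4), against 1.64% of all. A match describes letters in these windows and not binding.

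On the TPM (transcripts-per-million) scale, which is per transcript length and so allows levels of different genes to be compared, the machinery spanned a wide range. Summed over the 42 genes it amounted to 11327 ± 227 TPM in ox-LDL macrophages (SD, n = 6), 11854 ± 431 TPM in vehicle macrophages (n = 5), 18076 ± 2115 TPM in ox-LDL monocytes (n = 5) and 17620 ± 1308 TPM in vehicle monocytes (n = 6). The lowest monocyte library, at 15717 TPM, lay above the highest macrophage library, at 12181 TPM. Most of that gap lay in actin turnover and cortex, which summed to 3257 ± 206 TPM in ox-LDL macrophages, 3523 ± 59.7 in vehicle macrophages, 8159 ± 1324 in ox-LDL monocytes and 7743 ± 783 in vehicle monocytes. Within that step the single gene Pfn1 had means of 1802, 2009, 5756 and 5062 TPM in these 4 groups, in that order. The sums thus follow the most abundant genes, and the part of other cells in them was not tested. The Arp2/3 complex summed to 3224 ± 181, 3343 ± 170.1, 4949 ± 658 and 4695 ± 384 TPM in the same 4 groups. Maturation genes ran the other way, at 799.8 ± 34.4, 758 ± 39.1, 587 ± 79.0 and 511 ± 81.8 TPM, as did WASP and WAVE genes, at 703 ± 19.5, 724 ± 90.8, 426 ± 75.9 and 469 ± 80.0 TPM.

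Pfn1 had the highest level in every group, with medians of 1758 TPM in ox-LDL macrophages, 2034 in vehicle macrophages, 5561 in ox-LDL monocytes and 4812 in vehicle monocytes. Cfl1 came next in each group, at 1238, 1203, 1741 and 1803 TPM. At the low end stood Wasf1, at 0.045, 0.286, 0 and 0 TPM. Above it in macrophages came Cttn and Wasl, with 4.47 and 8.27 TPM under ox-LDL and 8.95 and 8.66 TPM under vehicle, and in monocytes Rab34 and Pikfyve, with 3.55 and 3.70 TPM under ox-LDL and 2.75 and 4.25 TPM under vehicle. The ranges of the genes in each of these pairs overlapped over the libraries of a group, so their order within a group is not resolved. At least 10 TPM in every library was reached by 39 members in each macrophage group and 36 in each monocyte group.

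**Figure D3:**
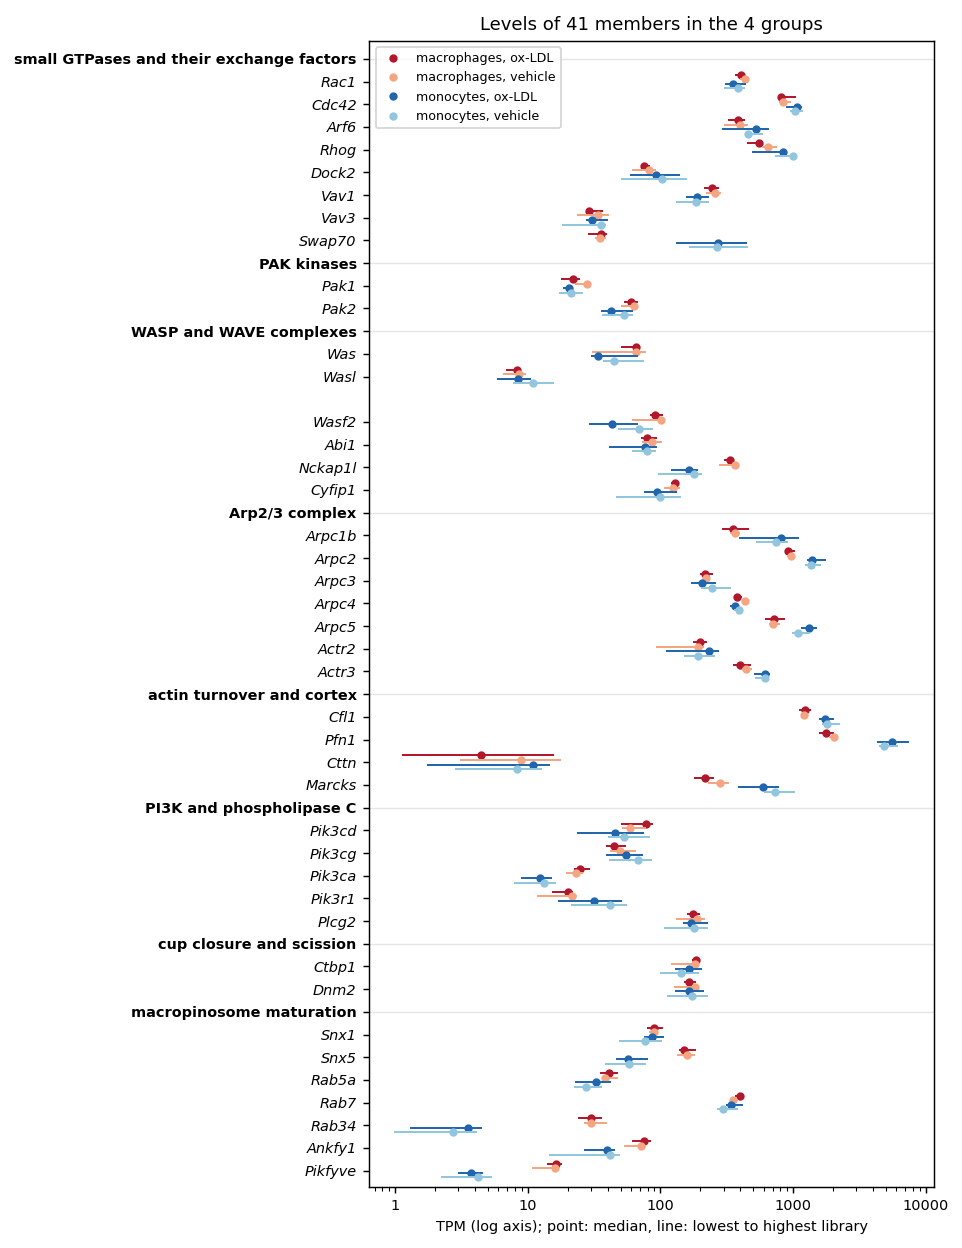
Level of 41 of the 42 genes in TPM (x axis, log scale) by step, as the median (point) and the lowest to highest library (line) of the ox-LDL macrophages, vehicle macrophages, ox-LDL monocytes and vehicle monocytes, from top to bottom within each gene. Pfn1 lies farthest right in all 4 groups, and Wasf1, with medians of 0 TPM in monocytes, is not drawn.

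A few members separated by library set, at about the share seen over all genes. In the 4 monocyte libraries high in neutrophil markers, 3 members were below and 1 above all the other 7 monocyte libraries, where 10.7% of all genes tested were separated in either direction, so this count of 4 in 41 is near the background. Cttn had 3.35 to 5.92 CPM in the 4, against 11.4 to 19.5 CPM in the other 7, Swap70 had 485 to 676 against 696 to 1168 CPM, and Rab34 had 1.09 to 1.504 against 2.25 to 3.84 CPM. Pak1 was above, with 30.6 to 39.6 CPM in the 4 against 24.4 to 30.2 CPM in the others. These sets were formed from the data, so the values are descriptions. The Swap70 and Rab34 differences between cell types were of like size without the 4 libraries, with log2 fold changes of -3.20 and 3.28 under vehicle.

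In macrophages, libraries C, D, I and J held Cttn at 19.2 to 24.8 CPM, against 1.70 to 13.1 CPM in the other 7. Rab34 was also higher in these 4, at 27.87 to 32.3 against 21.3 to 27.85 CPM, and so was Arf6, at 225 to 240.4 against 179 to 223 CPM. Swap70 was lower, at 81.8 to 96.2 against 99.8 to 111 CPM. Such separation in either direction was seen in 4 of 42 members and in 7.13% of all genes tested, again near the background. Dendritic cell markers, at low sums, were also higher in the 4, at 272 to 319 against 149.8 to 226 CPM, and neutrophil markers lower, at 24.9 to 30.1 against 43.8 to 93.0 CPM. Their part in these values was not tested. Over the treatments Cttn had 1.70 to 23.3 CPM in ox-LDL macrophages and 5.32 to 24.8 CPM in vehicle macrophages, with a log2 fold change of -0.59 ± 0.59. Without libraries C, D, I and J, Cttn was called lower in macrophages than in monocytes with ox-LDL, which the full set of libraries did not call.

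**Figure D4:**
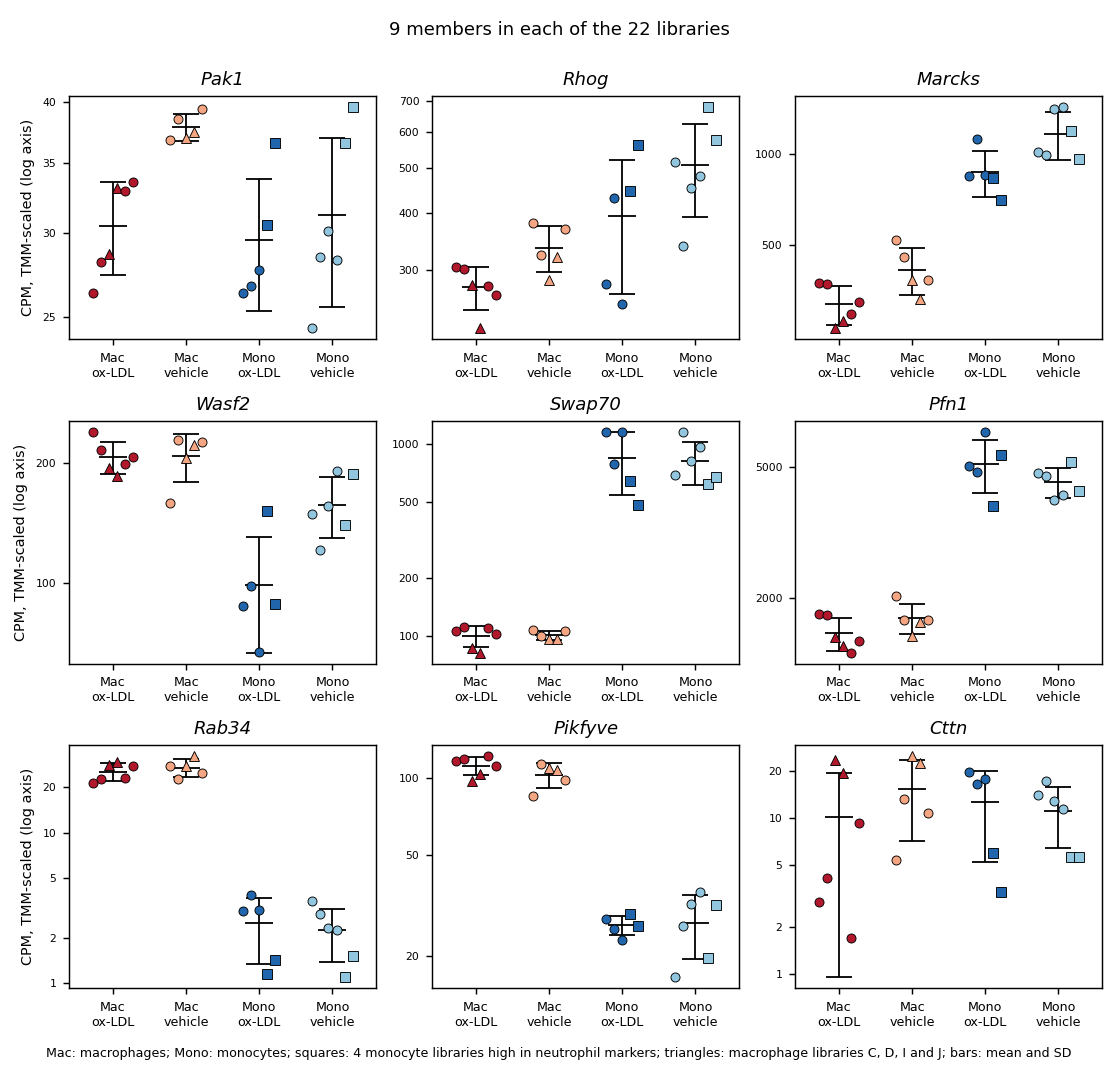
CPM scaled by TMM (y axis, log scale) of 9 members in each library, with ox-LDL macrophages, vehicle macrophages, ox-LDL monocytes and vehicle monocytes from left to right, and the mean and SD as bars. Pak1 separates the macrophage treatments (26.4 to 33.6 against 36.8 to 39.4 CPM), Swap70, Pfn1, Rab34 and Pikfyve separate the cell types, and Cttn follows the marked libraries.

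Another 142 genes of the same processes, listed in 6 groups, were measured alongside. In monocytes edgeR called 0 of 139 tested with ox-LDL, with 13 at an unadjusted p under 0.05. Of the 137 tested in macrophages, 0 were called higher and 2 lower with ox-LDL, which is near the 0.976% and 1.38% of all genes. These were Coro1a, which encodes coronin 1A, an actin-binding protein of leukocytes, with 156 to 259.6 CPM (median 212) under ox-LDL and 243 to 399 CPM (median 302) under vehicle, and Rras, a small GTPase, with 37.1 to 45.6 CPM (median 41.1) under ox-LDL and 53.3 to 60.6 CPM (median 58.7) under vehicle. Rras did not overlap between the groups and Coro1a did, and the log2 fold changes were -0.48 ± 0.07 for Rras and -0.56 ± 0.14 for Coro1a (edgeR adjusted p = 0.00180 and 0.0488). The interaction test in edgeR called 0 of 140, with 13 at an unadjusted p under 0.05.

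Between macrophages and monocytes, 52 of 139 listed genes were called higher and 44 lower with vehicle, and 57 and 41 of 138 with ox-LDL. Over all genes the shares called were 28.5% higher and 35.1% lower with vehicle and 30.3% higher and 35.0% lower with ox-LDL, and the counts of the single lists below were not tested against them. Further macropinosome and early endosome genes were higher in 15 and lower in 5 of 30 with vehicle, and higher in 17 and lower in 7 of 30 with ox-LDL. The 3 with the widest called differences under vehicle were Snx33 (1.92 ± 0.18), Appl2 (1.71 ± 0.13), an adaptor of early endosomes, and Rab31 (1.51 ± 0.13), a GTPase of the Rab5 subfamily. Further phosphoinositide genes were higher in 11 and lower in 4 of 24 with vehicle, led by Inppl1 (2.38 ± 0.19), the lipid phosphatase SHIP2, Pik3ap1 (1.54 ± 0.14), a PI3K adaptor, and Pik3r4 (1.12 ± 0.15), a subunit of the endosomal PI3K complex. With ox-LDL they were higher in 14 and lower in 4. Nucleation complex subunits beyond the members were higher in 2 and lower in 7 of 12 with vehicle, and higher in 3 and lower in 6 with ox-LDL. Abi2, the paralog of Abi1, was higher (1.74 ± 0.14), Nckap1, the broadly expressed paralog of Nckap1l, was higher (0.96 ± 0.30), and Arpc5l, the paralog of Arpc5, was lower (-1.31 ± 0.14).

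Further actin and membrane regulators were higher in 11 and lower in 16 of 35 with vehicle, and higher in 10 and lower in 15 of 34 with ox-LDL. Fscn1, which encodes the bundling protein fascin, is 1 of the dendritic cell markers used above. It had 0.715 to 3.99 CPM in vehicle macrophages, against 1801 to 3733 CPM in vehicle monocytes, with a log2 fold change of -10.33 ± 0.49. Marcksl1, the paralog of Marcks, and Coro1a were lower by -4.12 ± 0.38 and -2.39 ± 0.22, so both Marcks genes were lower. Further GTPases and regulators were higher in 9 and lower in 6 of 22 with vehicle, and higher in 9 and lower in 4 with ox-LDL. Among the widest with vehicle were Dock1 (2.25 ± 0.26), the broadly expressed relative of Dock2, and Cyth4 (1.26 ± 0.14), an exchange factor for Arf proteins. Receptors and Src-family kinases were higher in 4 and lower in 6 of 16 with vehicle, and higher in 4 and lower in 5 with ox-LDL. Csf1r, the receptor for the growth factor M-CSF that evokes ruffling in macrophages, was higher (2.45 ± 0.20), Thbs1, which encodes the secreted ligand thrombospondin 1, was higher (2.19 ± 0.48), and Fgr, a Src-family kinase, was lower (-2.70 ± 0.22). With ox-LDL the widest called differences of these lists also included Rab5c (2.14 ± 0.24), a GTPase of early endosomes, Iqsec1 (1.73 ± 0.32), an exchange factor for Arf proteins, Washc1 (-0.79 ± 0.11), a subunit of the endosomal WASH complex, and Csf2rb (-1.39 ± 0.09), a cytokine receptor chain.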

How the data were processed

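Per the labels, 22 libraries were prepared with a SMARTer kit for very small inputs, and polyadenylated transcripts were read. Per the submitters' processing notes, STAR 2.7.9a and featureCounts 2.0.3 were used with the mouse build GRCm38. The strand setting and how multi-mapping reads were treated: not given in the sources used here. Values in the deposited count table are whole numbers for each gene. The deposited CPM, FPKM and TPM were checked against the counts, and 0 genes departed from the relations at a relative tolerance of 1e-06. TPM were used for levels between genes as deposited, and CPM in the text were computed here with TMM factors. FPKM entered that check and nothing else. All 42 genes had the same span in GENCODE M21, and symbols came from a name table (55141 of 55487 IDs matched).

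Each pair of groups was fitted on the counts in edgeR 4.0.16 (R 4.3.3) with TMM scaling and the filterByExpr filter, then tested by quasi-likelihood, 2-sided. The p-values were adjusted by Benjamini-Hochberg over all genes in the fit, and a gene is called at an adjusted p under 0.05. The interaction was fitted over all 4 groups. Errors of log2 fold changes are SE. DESeq2 1.42.0 and other scalings and filters were alternatives. The fits of ox-LDL against vehicle were also run on simulated counts. That simulation gave every gene the same spread between libraries and held no library sets. It therefore does not show how the fits perform on these libraries. The members, lists and tests were chosen with earlier results of these data known. Per-library values are given for 8 members fixed by name, for called members and those of lowest p, and for the widest called differences per step. Of other pathway genes, up to 3 called genes per list with a mean of at least 5 CPM are named, and 1 gene so chosen is not reported here. Promoter windows came from a RefSeq table of GRCm38.p6. Ranges of CPM cover library spread, and counts of amplified reads without molecular identifiers are not counts of molecules. No 2 libraries of a group agreed within counting noise (lowest chi-square per degree of freedom 7.95).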

Additional observations from a re-analysis of the deposited data

Results flagged for a closer look

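Of 167 pairs of member and group with 5 or 6 libraries, 11 had a library far from the others of its group. Chance alone gives about 1 in 20 such groups, and these values are given with no explanation. Vehicle macrophage library A accounted for 4 of them: Actr2 had 197 CPM there against 343 to 364 CPM in the other vehicle macrophages, Pik3r1 48.7 against 72.7 to 78.8 CPM, Arpc3 237 against 211 to 215 CPM, and Cfl1 1377 against 1192 to 1232 CPM. In the same group, library E had 188 CPM of Pik3cg, against 144 to 146 CPM.

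In ox-LDL macrophages, library J had 42.1 CPM of Was against 54.0 to 59.1 CPM and 0.327 CPM of Wasf1 against 0.0212 to 0.109 CPM, and library I had 351 CPM of Dnm2 against 303 to 317 CPM. In ox-LDL monocytes, replicate 10 had 57.3 CPM of Was against 26.0 to 34.4 CPM, and replicate 11 had 76.0 CPM of Abi1 against 112 to 121 CPM. In vehicle monocytes, replicate 6 had 199.8 CPM of Pik3cd against 99.5 to 123 CPM. Replicates 6, 10 and 11 are among the 4 monocyte libraries high in neutrophil markers, and libraries I and J among the 4 macrophage libraries that stood apart.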

How the results depend on the processing

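Single values were recomputed 1133 times over 63 results: 1103 kept their side of the threshold, among them 23 uncalled values that changed sign, while 23 lost a call, 7 gained one and 0 called values turned round. The count of members lower with ox-LDL in macrophages, 1 as reported, was 3 with total-count scaling (Rhog, Pak1 and Marcks), 3 with the macrophage library set as a covariate, 2 in DESeq2 (Pak1 and Marcks), 0 with no filter, 0 in 1 fit over all 4 groups, and 0 to 1 with each library left out in turn. Over all 14543 genes tested, 200 were called lower as reported, 334 with total-count scaling and 498 with the covariate. The number was 386 of 30890 genes in DESeq2, 216 of 30967 with no filter and 74 of 17466 in the fit over all 4 groups. The count lower in monocytes, 0 as reported, was 1 in the fit over all 4 groups (Wasf2, adjusted p = 0.0349). That fit called 109 of 17466 genes lower, against 0 of 16575 as reported. The count with a higher interaction, 0 as reported, was 1 without the 4 libraries high in neutrophil markers (Wasf2), and 0 to 1 with each library left out in turn. Without those 4 libraries 85 of 17971 genes had a higher interaction, against 1 of 17466 as reported. The causes were not tested. Counts between cell types stayed within 1.5 times of those reported under every alternative run. The scalings moved the median of all genes by less than 0.1 on the log2 scale. The macrophage set alternatives were chosen after seeing the data. Wasf1, at up to 22 counts a library, is limited by depth. No paired analysis was possible because the groups share no replicate numbers in the labels.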
